A study of Mus musculus with 4 samples.

Results

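The cytosolic ribosomal proteins are the protein parts of the ribosomes that translate mRNA outside mitochondria. Their genes were taken from the count table by symbol: every protein-coding mouse gene named Rpl or Rps with a number and at most a closing a or x, together with Rplp0, Rplp1, Rplp2 and Rpsa. The rule reads symbols alone. The rule found 76 of the 24116 genes in the table, 46 for the large subunit and 30 for the small one, and left out pseudogenes, kinases of the Rps6k family and mitochondrial ribosomal proteins. RNA-seq had been done on mouse embryonic stem cells of the strain labelled 12910la, grown on gelatin in serum medium with LIF, the cytokine that maintains the undifferentiated state. There were 2 wild-type libraries and 2 libraries labelled Kdm2a knockout. Kdm2a is a demethylase of histone H3 lysine 36, and the comparison asks which transcripts differ where it is lost. Cells labelled knockout descend from 1 clone, grown up after guide RNA transfection and a GFP sort, so a trait of that clone and a loss of Kdm2a cannot be told apart. The genotype label calls the same samples knocked down rather than knocked out.

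Each ribosome carries close to an equal number of each of these proteins, and their mRNAs are among the most abundant of a dividing cell. Most of them begin at a C followed by a run of pyrimidines, the 5′ terminal oligopyrimidine (5′TOP) motif, through which LARP1 and the kinase mTORC1 adjust their translation and stability together. Surplus ribosomal proteins are degraded, and free Rpl5 and Rpl11 can bind the p53 regulator Mdm2. Embryonic stem cells divide fast, and many of these genes are also the source of processed pseudogenes, copies of the mRNA that were pasted back into the genome.

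Pyrimidine runs lie at or near the annotated start of many of these genes. RefSeq promoter windows of GRCm38.p6, the assembly behind the mm10 build of the counts, were matched for 56 of the 76 genes, with 66 windows in all since some genes have several annotated starts. The 30 bases around the annotated start are printed 5′ to 3′ for 8 of them. Rps6, Rps10, Rpl18 and Rpl38 show the run in 4 genes whose groups overlapped, and Rpl15, Rpl6, Rps12 and Rps24 are genes with the highest knockout to wild-type ratios of their subunit. Capitals mark the longest run of a C followed by at least 5 C or T, and the annotated transcript begins at base 16 of each line.
Rps6: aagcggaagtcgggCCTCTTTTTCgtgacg
Rps10: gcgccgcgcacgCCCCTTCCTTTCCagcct
Rpl18: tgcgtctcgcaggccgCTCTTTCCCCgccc
Rpl38: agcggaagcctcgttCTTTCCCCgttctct
Rpl15: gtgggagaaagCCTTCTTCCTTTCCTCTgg
Rpl6: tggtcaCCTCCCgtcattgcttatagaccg
Rps12: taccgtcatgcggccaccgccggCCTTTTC
Rps24: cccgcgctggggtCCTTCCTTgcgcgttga
The window of Rps6 lies at chr4:86857353-86857382 (minus strand), that of Rps10 at chr17:27635230-27635259 (minus strand) and that of Rpl18 at chr7:45718056-45718085 (plus strand). The window of Rpl38 lies at chr11:114668565-114668594 (plus strand), that of Rpl15 at chr14:18270972-18271001 (minus strand) and that of Rpl6 at chr5:121204486-121204515 (plus strand). The windows of Rps12 and Rps24 lie at chr10:23787195-23787224 (minus strand) and chr14:24490663-24490692 (plus strand). Each spans the last bases before the annotated start of transcription and the first bases of exon sequence after it.

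Within 15 bases of a start, on the sense strand, 33 of the 56 genes (58.9%) had such a run in at least 1 window, against 25.5% of all 27025 genes with a window. These were 20 of 34 large-subunit and 13 of 22 small-subunit genes. A run so placed need not be a 5′TOP motif, and it held the first base of the annotated transcript in 19 of the 56 genes (33.9%, all genes 6.85%). Among the sequences printed, the runs of Rps6, Rps10, Rpl38, Rpl15 and Rps24 hold that base. The run of Rpl6 ends before it, and those of Rpl18 and Rps12 begin after it. Over the whole window of 250 bases before and 50 after the start, and on both strands, CCGGAAG, a sequence that ETS-family factors such as GABP can bind, was in a window of 23 of the 56 genes (41.1%, all genes 9.93%). ATGGCGG, a YY1-type sequence, was in 9 (16.1%, all genes 4.69%), and GGGCGG, an Sp1-type sequence, was in 34 (60.7%, all genes 38.2%). CTTTCC, which lies inside many of the pyrimidine runs, was in 29 (51.8%, all genes 29.3%). TATAAA on the sense strand was in 5 (8.93%, all genes 9.77%). These are matches of letters in a window and not measured binding. The 33 genes with a run near the start had a median log2 fold change of 0.08, the 23 without one had 0.07, and the 20 with no window had 0.03.

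All 76 genes passed the filter on low counts, and they were read from libraries of 18844246 to 19056529 counts. Kdm2a RNA did not drop with the label: there were 2899 and 3554 counts in wild type and 3710 and 4753 in the others. Its log2 fold change was 0.44 (SE 0.24), so the RNA level does not check the label, and directions below are those of the libraries as labelled. The 10 stem cell markers, Pou5f1, Nanog and Sox2 among them, were all present and summed to 5973 to 7443 CPM (read counts scaled to a common library size with TMM factors). The 10 fibroblast markers summed to 33.9 to 93.6 CPM with Lum at 0 counts in every library, and Dcn, Col1a2, Col3a1 and Postn had no more than 6 counts in any. Higher counts were read for Pdgfrb (180 to 841), Thy1 (316 to 699) and Col1a1 (38 to 169), while Pdgfra and Fbn1 had 28 to 45. Primitive endoderm markers summed to 123 to 198 CPM, neural markers to 96.1 to 167 CPM and mesoderm markers to 15.6 to 31.8 CPM.

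Ribosomal protein mRNA made up a similar part of the counts in both groups, and the wild-type libraries differed from each other by more than the groups did. The large-subunit genes took 3.12% of all counts in wild type 1 (Wilson 95% interval 3.11 to 3.13) and 2.31% in wild type 2 (2.30 to 2.31). They took 2.85% in the first library labelled knockout (2.84 to 2.86) and 2.82% in the second (2.82 to 2.83). Both libraries labelled knockout lay between the wild-type ones. The small-subunit genes took 1.98% (1.97 to 1.99) and 1.43% (1.42 to 1.43) in wild type, and 1.73% in each library labelled knockout (1.72 to 1.73 and 1.73 to 1.74). The order of the libraries was thus similar for both subunits, with wild type 1 highest and wild type 2 lowest. These intervals cover counting error only, since they treat the reads of a library as independent draws. PCR copies are counted as separate reads, so the intervals may be too narrow even for that error.

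**Figure D1:**
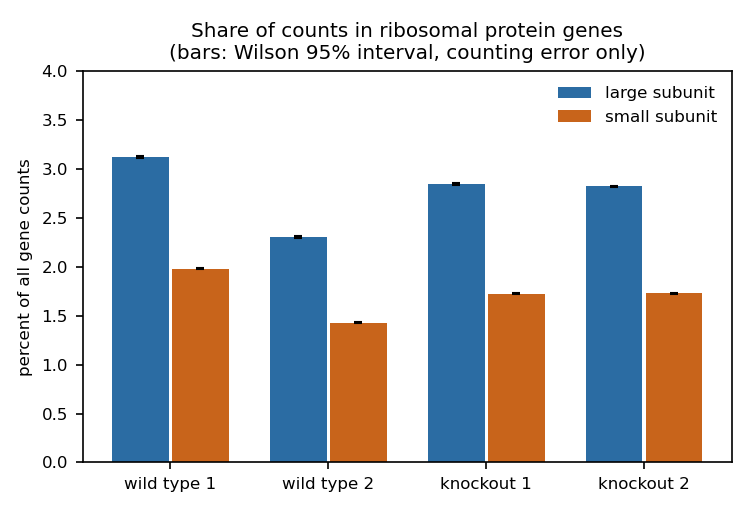
Percent of all gene counts that fell in large-subunit (blue) and small-subunit (orange) genes, for each of the 4 libraries; error bars are Wilson 95% intervals, which cover counting error only. Wild type 1 stands highest (3.12% and 1.98%), wild type 2 lowest (2.31% and 1.43%), and both libraries labelled knockout lie between them.

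The mean large-subunit share was 2.71% ± 0.576 (SD, n = 2) in wild type and 2.84% ± 0.0183 (SD, n = 2) in the libraries labelled knockout. The difference of 0.121 percentage points was smaller than the wild-type spread (exact two-sided permutation test, p = 1.00). The mean small-subunit share was 1.70% ± 0.390 (SD, n = 2) in wild type and 1.73% ± 0.00258 (SD, n = 2) in the others (difference 0.0242 percentage points, exact two-sided permutation test, p = 1.00). With 2 libraries against 2, the smallest p this exact test allows is 0.333. The labels do not say whether the libraries of a group were separate cultures. If they were not, each p-value reflects technical spread between these samples alone. In bulk RNA, less of an mRNA per cell and fewer cells that hold it cannot be told apart. Which wild-type library is kept sets the sign: without wild type 1 the large and small shares were 0.529 and 0.300 points higher in the libraries labelled knockout, and without wild type 2 the differences were -0.286 and -0.252 points.

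The balance of the subunits was also compared. The ratio of large-subunit to small-subunit counts was 1.58 and 1.61 in wild type and 1.65 and 1.63 in the libraries labelled knockout. The groups did not overlap, and the difference of 0.0449 had the smallest p that the exact two-sided permutation test allows, 0.333. Without Rpl6 and Rpl15, chosen after their values were seen, the ratios were 1.52 and 1.55 against 1.56 and 1.54, and the difference was 0.0144 with the groups overlapping. Over genes with at least 50% of their sequence of read length found in no other gene it was -0.0324.

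No ribosomal protein gene passed the test between the groups. edgeR's quasi-likelihood test with Benjamini-Hochberg adjustment called 0 of the 76, as it called 0 of all 14194 genes tested (0%). The adjusted p of every member was 1.00, and 2 members, Rpl15 and Rpl6, were under 0.05 before adjustment, as were 242 of all genes. DESeq2 called 2 genes, the edgeR likelihood ratio test 4 and limma-voom 0, none of them a member. The fold changes were small for most: 63 of the 76 lay within 0.25 of 0 on the log2 scale, and the median standard error was 0.24. The highest was 0.92, for Rpl15.

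The direction of these small differences depended on single libraries. The log2 fold change, knockout over wild type, was positive for 53 of the 76 members, against 50.5% of all genes tested. This held for 32 of 46 large-subunit and 21 of 30 small-subunit genes. With upper-quartile scaling 45 members were positive, and with library totals alone 44, where the median of all genes was -0.033 and -0.042. The median was 0.08 over the large-subunit genes and 0.07 over the small-subunit genes, beside 0.003 over all genes. Without wild type 1 the medians were 0.31 and 0.29, and without wild type 2 they were -0.15 and -0.15, with 20 of the 76 positive.

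For 12 members (15.8%) the libraries of the groups did not overlap, against 24.4% of all genes. In 11 of them both libraries labelled knockout were above both wild-type ones (all genes 11.7%): Rpl6, Rpl7, Rpl14, Rpl15, Rpl19, Rpl23a and Rplp0 of the large subunit, and Rps7, Rps24, Rps25 and Rps27a of the small one. The reverse order held for 1 member, Rpl27 (all genes 12.7%). The share of members without overlap was thus below that of all genes. With upper-quartile scaling 9 members were above and 1 below without overlap (all genes, both directions, 24.3%). With library totals alone 9 were above and 2 below (all genes, both directions, 24.4%). Leaving out wild type 1 or wild type 2 left 67 and 65 members without overlap (all genes 56.1% and 67.8%). Leaving out the first or the second library labelled knockout left 24 and 22 (all genes 73.6% and 51.2%).

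**Figure D2:**
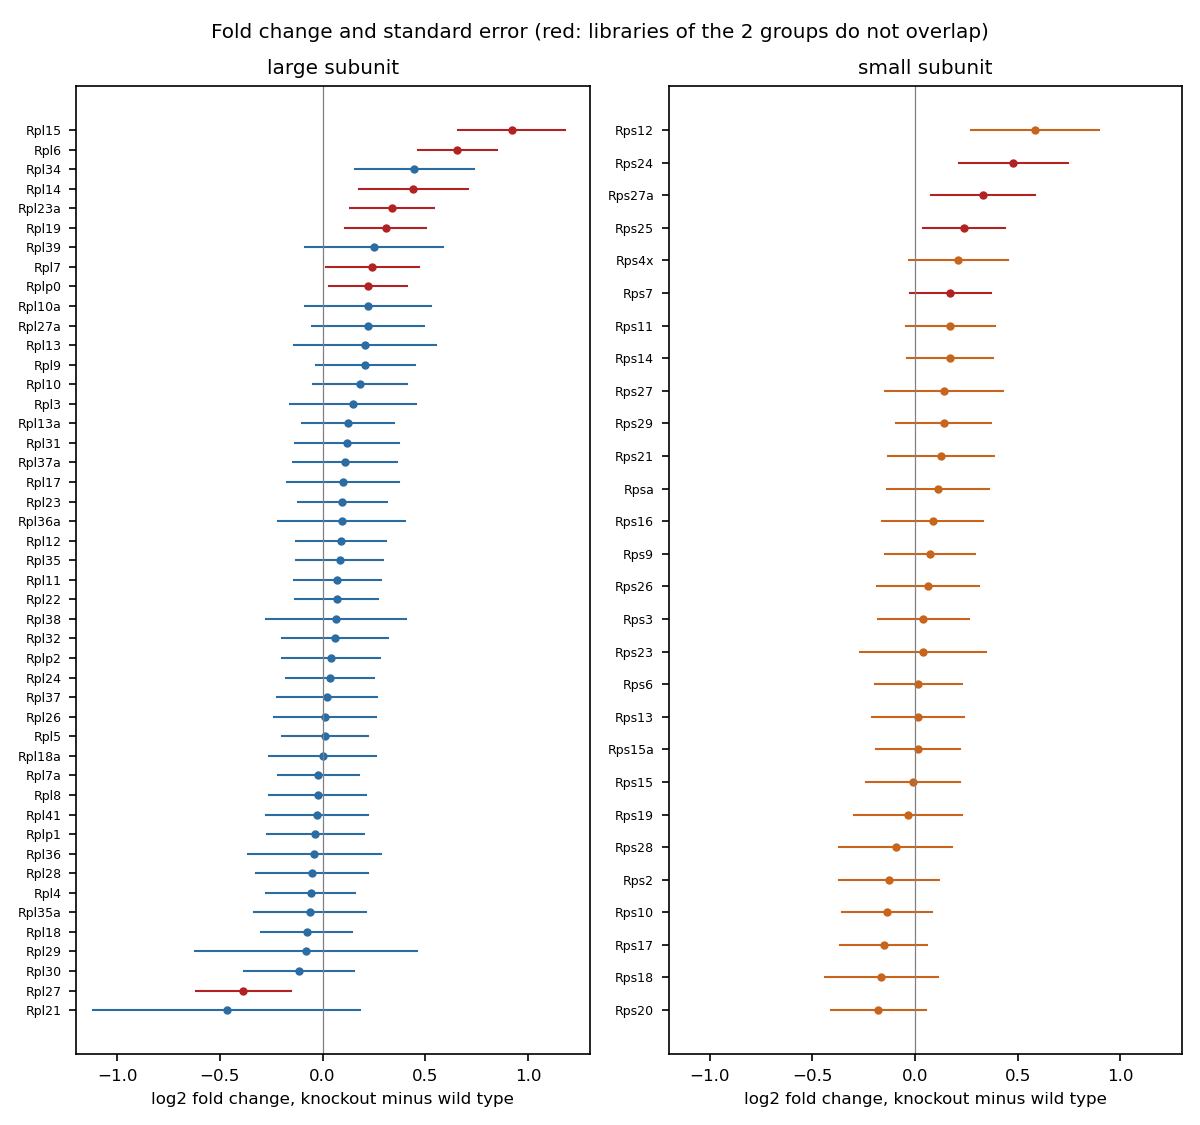
Log2 fold change (libraries labelled knockout over wild type, points) with 1 standard error to each side (lines) for 46 large-subunit (left) and 28 small-subunit (right) genes, ordered by fold change; red marks the 12 genes whose groups did not overlap. Most points lie near 0, with Rpl15 and Rpl6 at the upper end (0.92 and 0.66) and Rpl21 and Rpl27 at the lower end (-0.47 and -0.39).

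Among large-subunit genes, the stalk that recruits translation factors is built by Rplp0, its anchor, and the acidic proteins Rplp1 and Rplp2. Where values are given as 1 pair against another, the first pair is wild type 1 and 2 and the second pair is the first and second library labelled knockout. Rplp0 had 1272 and 1371 CPM in wild type and 1477 and 1606 CPM in the libraries labelled knockout. Both of the latter were higher, by a log2 fold change of 0.22 (SE 0.19) that did not pass the test. Rplp1 had 1217 and 835 CPM in wild type and 1006 and 995 in the others. Rplp2 had 534 and 369 CPM against 479 and 451. For both acidic proteins the libraries labelled knockout lay between the wild-type ones, so the anchor and its partners were ordered differently over the 4 libraries.

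Rpl5 and Rpl11 enter the ribosome together with 5S rRNA. Rpl5 had 1252 and 975 CPM in wild type and 1126 and 1118 CPM in the libraries labelled knockout (log2 fold change 0.010, SE 0.21). Rpl11 had 376 and 347 CPM against 422 and 338 CPM (log2 fold change 0.072, SE 0.21). The groups overlapped for both. Rpl3 lies near the peptidyl transferase centre, where peptide bonds form. It had 1762 and 932 CPM in wild type and 1552 and 1432 in the others, so its wild-type libraries were the highest and the lowest of the 4. Rpl4, which lines the exit tunnel of the new peptide, had 3403 and 2557 CPM against 3028 and 2694 CPM, in the same order.

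Several large-subunit proteins are known for roles in the translation of particular mRNAs. Rpl38, needed for the translation of Hox mRNAs in the embryo, had 222 and 113 CPM in wild type and 196 and 154 in the libraries labelled knockout. Rpl10a, found in only part of the ribosomes of stem cells, had 1123 and 687 CPM against 850.4 and 1259.8 CPM. Groups overlapped in both genes, and the wild-type libraries were far apart. Rpl13a, which after its release represses inflammatory mRNAs, had 1532 and 1148 CPM against 1341 and 1575 CPM. Rpl26, which binds p53 mRNA, had 533 and 382 CPM against 518 and 405 CPM. Rpl22, whose loss impairs T cell development, had 369 and 317 CPM against 358 and 362 CPM. Rpl24, mutated in the Belly spot and tail mouse, had 575 and 441 CPM against 517 and 525 CPM. The groups overlapped in these 4 genes as well, with log2 fold changes of 0.012 to 0.12.

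The large-subunit genes with the highest ratios were Rpl15 and Rpl6. Rpl15, a protein of the core of the subunit whose human gene is mutated in some cases of Diamond-Blackfan anaemia, had 127 and 142 CPM in wild type and 203 and 306 CPM in the libraries labelled knockout. Both of the latter lay above both wild-type libraries, and they differed from each other by more than the wild-type pair did. The log2 fold change was 0.92 (SE 0.26), with an unadjusted p = 0.00961 and an adjusted p = 1.00 in edgeR's quasi-likelihood test. Leaving out each library in turn gave 0.60 to 1.18. Rpl15 shares stretches of read length with 23 other genes, all annotated as pseudogenes, and 69.8% of its stretches were found in no other gene. Rpl6, which is also known to be recruited to DNA damage, had 882 and 796 CPM in wild type and 1356 and 1289 in the others. Here each pair of libraries was close together and the groups were apart. Rpl6 shares stretches of read length with 13 other genes, 12 of them annotated as pseudogenes, and 35.7% of its stretches were found in no other gene. The log2 fold change was 0.66 (SE 0.19; unadjusted p = 0.0113, adjusted p = 1.00 in edgeR's quasi-likelihood test), and it stayed between 0.59 and 0.73 without any 1 library.

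Rpl34 followed with 107 and 83.9 CPM in wild type and 101 and 159.8 CPM in the libraries labelled knockout (log2 fold change 0.45, SE 0.29). Its height rested on the second library labelled knockout, and without it the log2 fold change was 0.08. Rpl14 had 396 and 258 CPM against 400.3 and 488 CPM (log2 fold change 0.44, SE 0.27), narrowly without overlap. Rpl14 was 1 of 4 further large-subunit genes without overlap at log2 fold changes of 0.24 to 0.44, the others being Rpl23a, Rpl19 and Rpl7.

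At the lower end, Rpl27 had 244 and 189.7 CPM in wild type and 179 and 153 in the libraries labelled knockout. It was the only member of the 76 for which both of the latter lay below both wild-type libraries (log2 fold change -0.39, SE 0.23). Rpl21 had 66.0 and 53.8 CPM in wild type and 14.0 and 72.7 in the others. The first library labelled knockout stood apart at 268 counts, against 1264, 1038 and 1323 in the remaining libraries. The log2 fold change was -0.47 (SE 0.65). Without that library it was 0.28, and without the second library labelled knockout it was -2.09, where Rpl21 passed edgeR's quasi-likelihood test (adjusted p = 0.0094). Rpl21 shares stretches of read length with 82 other genes, 81 of them annotated as pseudogenes. Of its stretches, 73.8% were found in no other gene. Rpl30, whose yeast counterpart binds its own transcript, had 116 and 82.9 CPM against 80.5 and 103 CPM (log2 fold change -0.12, SE 0.27).

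Among small-subunit genes, Rps6, Rps3 and Rpsa had log2 fold changes close to 0. Rps6, the substrate of the S6 kinases downstream of mTORC1, had 1124 and 879.5 CPM in wild type and 966 and 1060.0 in the libraries labelled knockout (log2 fold change 0.016, SE 0.21). Rps3, which sits at the mRNA entry of the subunit, had 1169.9 and 860.5 CPM against 1002 and 1086 CPM (log2 fold change 0.040, SE 0.22). Rpsa, also known as the laminin receptor precursor, had 1615 and 1053 CPM against 1398 and 1485 CPM (log2 fold change 0.11, SE 0.25). In all 3 the libraries labelled knockout lay between wild type 1 and wild type 2.

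Rps19, the gene most often mutated in Diamond-Blackfan anaemia, had 249 and 160.1 CPM in wild type and 203 and 197 in the libraries labelled knockout. Rps26, also mutated in that disease, had 1041 and 695 CPM against 855 and 956 CPM. Both were ordered like Rps6, with wild type 1 highest and wild type 2 lowest. Rps14, whose loss underlies the anaemia of the human 5q- syndrome, had 576 and 495 CPM against 653 and 551 CPM, with overlap. Rps25, which some viral mRNAs need for internal initiation, had 400.1 and 368 CPM against 471 and 435 CPM. Its groups did not overlap, at a log2 fold change of 0.24 (SE 0.20). Rps27a, made as a fusion with ubiquitin, had 69.3 and 52.7 CPM in wild type and 82.8 and 70.8 in the others. Its groups did not overlap either, although wild type 1 and the second library labelled knockout were close (log2 fold change 0.33, SE 0.25).

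The highest small-subunit ratios were those of Rps12 and Rps24. Rps12, which in flies acts in the comparison of cells of unequal fitness, had 206 and 122 CPM in wild type and 204 and 287 CPM in the libraries labelled knockout. Wild type 1 and the first library labelled knockout were level, so the groups overlapped (log2 fold change 0.58, SE 0.31, leave-one-out range 0.26 to 1.01). Rps24, another Diamond-Blackfan anaemia gene, had 862 and 533 CPM against 961 and 982 CPM. Its groups were apart, with most of the distance on the side of wild type 2 (log2 fold change 0.48, SE 0.26). Without wild type 2 it was 0.18, and without wild type 1 it was 0.87.

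Rps20 and Rps18 were among the small-subunit genes with negative values. Rps20 had 661 and 469.9 CPM against 519 and 481 CPM (log2 fold change -0.18, SE 0.23). Rps18 had 848 and 559 CPM against 532 and 723 CPM (log2 fold change -0.16, SE 0.27). Both overlapped, with wild type 1 highest.

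Of the 76 genes, 4 lie on the X chromosome, and the large-subunit proteins among them are Rpl10, Rpl36a and Rpl39. Rpl10, which joins late and is checked before the subunit may translate, had 231 and 176 CPM in wild type and 220.4 and 241 in the libraries labelled knockout. Rpl39, a small protein of the exit tunnel, had 146 and 73.8 CPM against 122 and 139 CPM. Rps4x of the small subunit had 1387 and 952 CPM against 1256 and 1450.1 CPM. The groups overlapped in all 4, and the log2 fold changes were positive in all 4 with a median of 0.20. Without wild type 1 the median was 0.55, and without wild type 2 it was -0.090, with 1 of the 4 positive.

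Over most of these genes the wild-type libraries differed in the same direction, unlike over the table as a whole. Wild type 1 was the highest of the 4 libraries for 52 of the 76 members (68.4%), against 29.6% of all genes tested. Wild type 2 was the lowest for 61 (80.3%), against 22.5% of all genes. Both held for 45 members (59.2%, all genes 8.88%), and in 46 (60.5%, all genes 16.9%) both libraries labelled knockout lay between the wild-type ones. Wild type 2 was below wild type 1 for 71 members, including all 30 of the small subunit, and for 7447 of all 14194 genes tested. The median difference in log2 CPM, wild type 2 minus wild type 1, was -0.48 over the members and -0.03 over all genes. Among members it ranged from -1.09 for Rpl13 to 0.73 for Rpl29, which had 43 and 73 counts. Over all genes the range was -3.56 to 6.54. The libraries labelled knockout were close to each other, with a median of 0.035 for the second minus the first. These counts compare single libraries and carry no test. Some cell type markers also differed between the wild-type libraries. The 10 stem cell markers summed to 7082 CPM in wild type 1 and 6711 CPM in wild type 2. Among them, Nanog had 383 and 761 CPM against 524 and 436 CPM. Zfp42 had 259.8 and 565 CPM against 410.3 and 326 CPM. For both pluripotency genes wild type 2 was highest and wild type 1 lowest, the reverse of most members. The other stem cell markers did not all share this order. Wild type 2 was below wild type 1 for Pou5f1 (1066 and 812 CPM), Dppa5a, Tdgf1, Tfcp2l1, Sox2 and Utf1, as for most members. It was above wild type 1 for Esrrb and Klf4. The 10 fibroblast markers summed to 93.6 and 41.2 CPM in wild type 1 and 2, against 67.4 and 33.9 CPM, with Lum at 0. Primitive endoderm markers summed to 178 and 123 CPM in the wild-type libraries, mesoderm markers to 17.5 and 21.5 CPM and neural markers to 96.1 and 125 CPM. The part of these cell types in the wild-type difference was not tested.

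**Figure D3:**
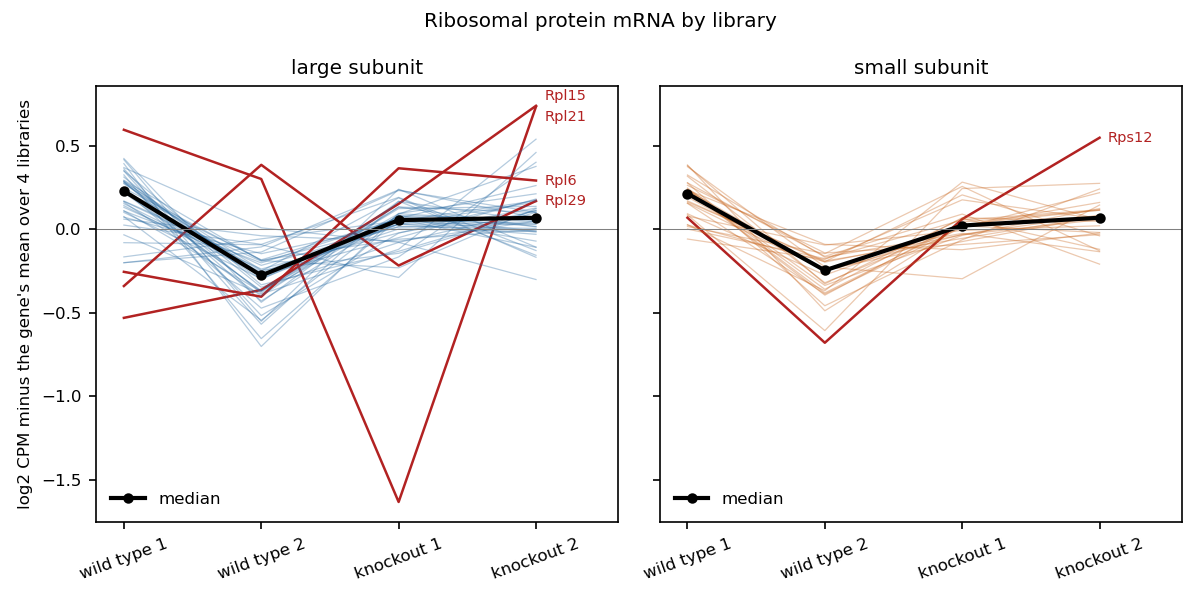
Log2 CPM of each gene minus its own mean over the 4 libraries, for large-subunit (left) and small-subunit (right) genes; each thin line joins the values of 1 gene, the black line joins the medians, and red lines are 5 genes that depart; 46 large-subunit and 28 small-subunit genes are drawn, and the medians are over all 46 and 30. The black medians stand at 0.23 and 0.21 in wild type 1 and at -0.28 and -0.25 in wild type 2.

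Most genes lay close to this shared profile. The standard deviation of a gene's residuals around the median profile of the 76 was 0.13 for the median member. That profile came from the same genes, and no other set of genes was compared. The value thus does not set the members apart from other genes. The standard deviation of residuals was largest for Rpl21 (1.11), Rpl15 (0.59) and Rpl29 (0.53), and under 0.05 for Rps3 among others. Rps3, whose values are given above, shows the shared profile with 97.0% of its stretches of read length found in no other gene. Its wild type 2 minus wild type 1 difference in log2 CPM was -0.44. Other members with few shared stretches varied, with -0.55 for Rpl8 (92.1% unique), -0.22 for Rpl22 (94.8%) and -0.17 for Rps15a (93.6%).

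Other mRNAs with a 5′TOP motif were compared with this profile. There were 20 such genes outside the 76, many of them for translation factors, with the ribosomal protein Rack1 among them. Wild type 2 was the lowest library for 11 of the 20 (55%, all genes 22.5%). Wild type 1 was the highest for 8 (40%, all genes 29.6%). Their median wild type 2 minus wild type 1 difference in log2 CPM was -0.28. Wild type 2 was below wild type 1 for 14 of the 20. The reverse held for Nap1l1 (0.78), Hnrnpa1 (0.55) and Btf3 (0.30), among others. Eef1a1, the elongation factor that brings tRNA to the ribosome, had 285598 and 226428 counts in wild type and 242533 and 196810 in the libraries labelled knockout. Eef2, which moves the ribosome along, had 6689 and 4856 CPM against 5000.1 and 6644 CPM. Wild type 1 was highest for both, and wild type 2 lowest for Eef2. Between the groups 0 of the 20 passed the test, and 13 had a positive log2 fold change (10 with library totals alone, 9 without wild type 2). The values ran from -0.34 for Eif4a2 to 0.22 for Tpt1.

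Short transcripts also differed between the wild-type libraries. Ribosomal protein mRNAs are short, with a median exon length of 834 bases against 3128 for other genes. Among other genes the median wild type 2 minus wild type 1 difference in log2 CPM was -0.29 up to 600 bases (129 genes), -0.24 from there to 1000 bases (545 genes), -0.09 to 2000 bases (2692 genes) and 0.06 above 4000 bases (4665 genes). The members were lower in each of these ranges, at -0.60 (19 genes), -0.44 (32 genes) and -0.44 (21 genes) in the first 3. Only 1 member was longer than 4000 bases. For the second minus the first library labelled knockout, other genes had a median of -0.30 up to 600 bases and 0.14 above 4000 bases, whereas the members had -0.05, 0.05 and 0.12 in the first 3 ranges. The part that transcript length has in the wild-type difference was not tested.

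**Figure D4:**
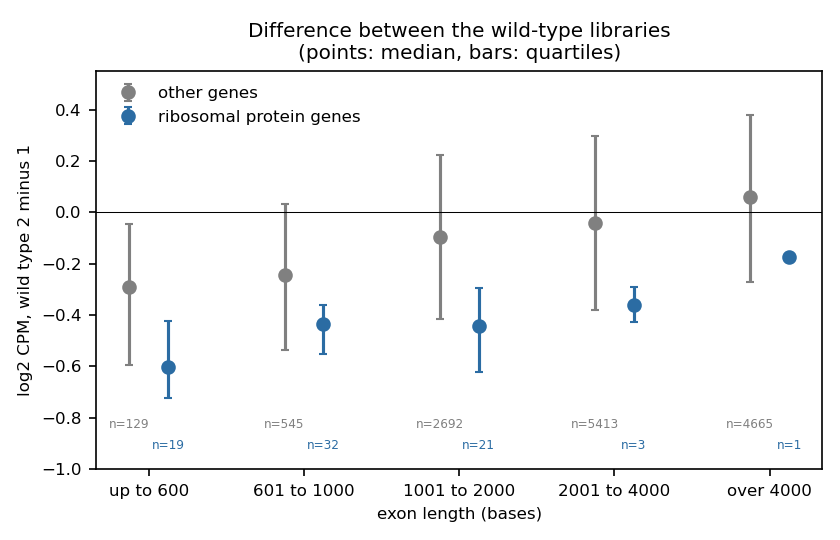
Difference in log2 CPM between the wild-type libraries (wild type 2 minus wild type 1) by exon length in bases, as median (points) and quartiles (bars), for other genes (grey) and ribosomal protein genes (blue), with the number of genes in each range. Other genes go from -0.29 in the shortest range to 0.06 in the longest, and the ribosomal protein genes lie lower in every range.

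Levels were compared between genes per kilobase of exon, as mean CPM per kb over the 4 libraries. The members ranged from 4.0 for Rpl29 to 2057 for Rpl8 with a median of 580, while the median of all genes tested was 8.65. The medians of the subunits were close, at 531 for the large and 616 for the small one. At the top of the large subunit, Rpl8 was followed by Rplp1 at 2031 and Rpl4 at 1899. Among the highest of the small subunit were Rps15 at 1467 and Rps26 at 1302. Rpl41, the smallest of the ribosomal proteins, had 1252. In all, 16 members reached 1000 and 5 lay under 100.

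The low levels were those of Rpl29 (4.0), Rpl21 (27.8) and Rpl30 (96.2) in the large subunit and of Rps15a (43.9), Rps27a (87.1) and Rps20 (144) in the small one, in CPM per kb. The annotated exons of Rps15a and Rps20 together span 5179 and 3706 bases, and a longer span lowers a level per length. Rps15a had 239.9 and 213 CPM in wild type and 226 and 231 in the others, and its groups overlapped.

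Copies of these genes bear on what their counts mean. Stretches of 50 bases, the read length, were compared with the transcripts of all other genes in GENCODE vM21. A median of 46.5% of a member's stretches was found in no other gene, with the lowest share, 4.91%, for Rpl35, and 75 of the 76 shared at least 1 stretch, with a median of 11 other genes. Rpl29 shared stretches with 84 genes and Rpl21 with 82, while 33.2% and 73.8% of their stretches were found in no other gene. Wide sharing was not limited to genes of low level. Rpl7a shared stretches with 123 genes at 411 CPM per kb, and Rps16 with 89 genes at 886 CPM per kb. How reads with several matches were counted is not given in the sources used here, so the counts of members with close copies are uncertain. Over the 76 members the share of unique stretches and the log2 level per kb had a Pearson's r of -0.0439 and a Spearman's rho of -0.0155, across genes that share these libraries. Large-subunit genes with at least 50% unique stretches took 1.43% and 1.09% of counts in wild type and 1.28% and 1.29% in the libraries labelled knockout. For small-subunit genes of that kind the shares were 1.15% and 0.827%, and 1.03% and 1.02%. The order of the wild-type libraries was thus the same in the genes whose reads can mostly be placed.

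**Figure D5:**
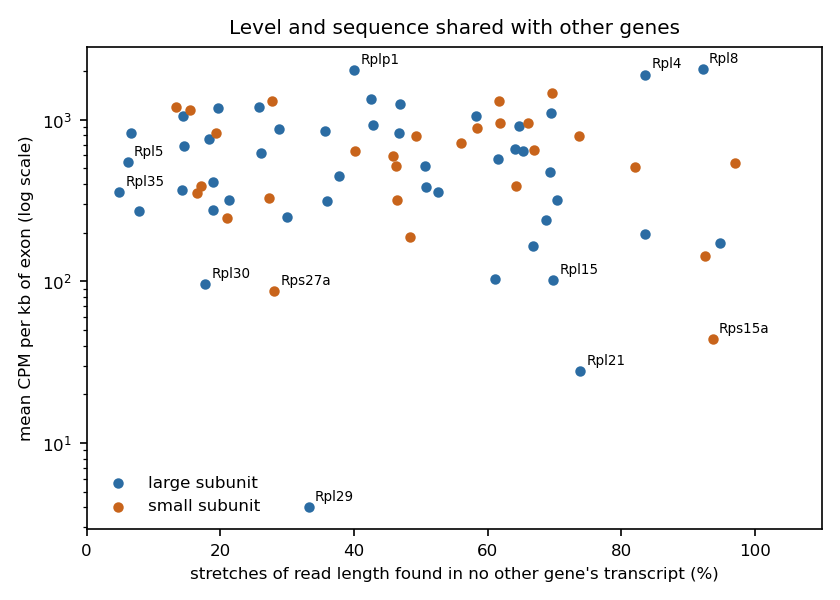
Mean CPM per kb of exon (log scale) against the percent of stretches of read length found in no other gene's transcript, 1 point for each of 46 large-subunit and 28 small-subunit genes, large subunit in blue and small subunit in orange. Rpl29 (4.0) lies far below the rest, followed by Rpl21 (27.8) and Rps15a (43.9), and genes with few unique stretches, such as Rpl5 and Rpl35, lie within the range of the others.

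Other ribosomal proteins of the cytosol have names outside the pattern, such as Fau, Rack1 and Rps3a1. Fau, a ubiquitin-like fusion that yields Rps30, had 496 and 308 CPM in wild type and 432 and 427 in the libraries labelled knockout. Rack1, a signalling scaffold on the small subunit, had 2151 and 1551 CPM against 1813 and 1822 CPM. In both genes wild type 1 was highest and wild type 2 lowest. Rps3a1, a small-subunit protein, had 618 and 485 CPM in wild type and 689.8 and 896 in the others. Wild type 2 was again lowest, but both libraries labelled knockout lay above both wild-type ones (log2 fold change 0.52, SE 0.23), and it did not pass the test.

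Over the 8 paralogs tested, the median wild type 2 minus wild type 1 difference in log2 CPM was 0.002, beside -0.48 over the members. The paralogs were split, with 4 of the 8 below 0 and values from -0.70 for Rpl10l to 0.37 for Rpl3l. Rpl22l1, an alternative to Rpl22, had 27.7 and 20.9 CPM in wild type and 20.7 and 24.6 in the libraries labelled knockout. Rpl39l, best known from male germ cells, had 382 and 433 counts in wild type and 389 and 295 in the others. Both overlapped between the groups. Rpl3l, the striated muscle form of Rpl3, was low at 61 and 80 counts in wild type and 34 and 50 in the others (log2 fold change -0.70, SE 0.53). The log2 fold changes of the remaining 5, Rpl10l, Rpl36al, Rpl7l1, Rps27l and Rps4l (a transcribed pseudogene in RefSeq), lay between -0.014 and 0.21. None passed the test.

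Genes that handle or regulate ribosomal proteins were not called either. Of 10 chaperones and assembly partners 0 passed, 9 had a positive log2 fold change, and the median was 0.15. Without wild type 1 there were 5 positive and the median was 0.013, and without wild type 2 the median was 0.36. Grwd1, the chaperone of Rpl3, had 62.0 and 81.5 CPM in wild type and 82.1 and 90.0 in the libraries labelled knockout, narrowly without overlap (log2 fold change 0.26, SE 0.24). Tsr2, the chaperone of Rps26, had 67.0 and 71.8 CPM against 61.2 and 68.1 CPM (log2 fold change -0.10, SE 0.23). Of the 10, wild type 2 was the lowest library for 2 (all genes 22.5%). Wild type 1 was the highest for 0 (all genes 29.6%), an order unlike that of most members.

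Among 15 regulators of 5′TOP mRNAs and mTORC1, 0 passed the test and 10 had a positive log2 fold change, with a median of 0.04 (7 positive with library totals alone). Tsc1, an inhibitor of mTORC1, had 80.4 and 50.2 CPM in wild type and 74.6 and 121 in the libraries labelled knockout. It overlapped between the groups (log2 fold change 0.58, SE 0.34). Deptor, which binds and restrains mTOR, had 111 and 101 CPM against 94.6 and 69.5 CPM, with both libraries labelled knockout below wild type (log2 fold change -0.37, SE 0.25). Larp1, the 5′TOP-binding protein, had 547 and 575 CPM against 583 and 754 CPM.

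Of 11 transcription factors tied to ribosomal protein genes 0 passed, and 7 had a positive log2 fold change, with a median of 0.08 (-0.0085 and 4 positive without wild type 1, 0.25 without wild type 2). Myc, a factor that drives ribosome production, had 310 and 1394 counts in wild type and 1262 and 1090 in the libraries labelled knockout. Wild type 1 stood far below the other 3 libraries, opposite in order to most ribosomal protein mRNAs (log2 fold change 0.51, SE 0.60). A lowest wild type 1 was not particular to Myc. It was seen for 8 of the 11 factors, 8 of the 15 regulators and 6 of the 10 chaperones, against 3871 of all 14194 genes tested. Mycn, of the same list as Myc, had 182 and 184 CPM against 230 and 153 CPM. The part of Myc in the wild-type difference was not tested. Without wild type 1 the log2 fold change of Myc was -0.20, and without wild type 2 it was 1.97. Gabpa, a subunit of the ETS-family factor GABP, had 207 and 253 CPM against 207 and 214 CPM, and its partner Gabpb1 had 69.4 and 65.2 CPM against 62.4 and 49.2 CPM. Both libraries labelled knockout were below wild type for Gabpb1 (log2 fold change -0.27, SE 0.24), and the groups overlapped for Gabpa.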

How the data were processed

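RNA-seq read counts per gene were analysed in 2 wild-type libraries and 2 libraries labelled Kdm2a knockout, with groups and replicate numbers taken from the sample titles. The authors deposited whole-number read counts, not normalized, from 50 bp reads of random-primed total RNA, made with HISAT2, featureCounts and mm10 per the submitters' processing notes. The sources used here do not give versions, annotation, strand setting or the handling of reads with several matches. Of the 24116 Entrez genes, 24061 were matched to a RefSeq symbol.

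The test was edgeR 4.0.16 (R 4.3.3) with filterByExpr (14194 genes kept), TMM scaling, the quasi-likelihood F test of genotype and Benjamini-Hochberg adjustment over all genes kept, threshold 0.05. The standard error (SE) is the absolute log2 fold change over the square root of F. CPM was computed with TMM-scaled library sizes, adding a prior count of 2 before logs. Shares and ratios were compared with exact permutation tests. Depth was 18844246 to 19056529 counts per library. Exon lengths are unions of GENCODE vM21 exons. The fit was tested on simulated data of 2 libraries against 2. There the quasi-likelihood test called 10% of genes given a 2-fold change and 72% of those given a 4-fold change. Most 2-fold changes were thus missed. Alternatives were other scalings, filters and tests (limma 3.58.1, DESeq2 1.42.0), a block on the replicate number and each library left out.

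The members and gene lists were chosen with earlier results of these data known. The rule for named genes took 26 members with known roles, the 3 highest and 3 lowest per subunit in fold change (mean of at least 5 CPM) and in level per kb, Kdm2a, the ribosomal proteins with other names, the paralogs, and the extremes of each list. Other genes, such as Rpl7, Rpl14, Rpl19, Rpl23a, Rps7, Rps10, Rpl18, Eef2, Larp1, Gabpa, Nanog and Zfp42, were chosen after their values were seen. Some genes that the rule takes are not reported here.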

Additional observations from a re-analysis of the deposited data

How the results depend on the processing

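The call of 0 members held under the 3 other scalings of the libraries, TMM factors computed without the members, both other filters, DESeq2, limma-voom and the edgeR likelihood ratio test. DESeq2 called 2 and the likelihood ratio test 4 of all genes, none a member. Without 1 library, 0 to 91 of all genes and 0 to 1 members were called, the 1 being Rpl21 without the second library labelled knockout. A group of 1 library is assumed there to vary like the other group. Over the libraries left out in turn, members without overlap ran from 22 to 67, positive members from 20 to 72, the large-subunit median log2 fold change from -0.15 to 0.31, the small-subunit median from -0.15 to 0.29, the large-subunit share difference from -0.286 to 0.529 percentage points, the small-subunit one from -0.252 to 0.300 and the ratio difference from 0.0259 to 0.0639. The ratio difference was -0.0324 over members with at least 50% unique stretches and 0.0144 without Rpl6 and Rpl15, both added after the data were seen. Restricting the genes to transcripts found once in the genome was not run, since no genome was used here. With the replicate number as a replicate block, 0 members were called and the medians were 0.10 (large) and 0.09 (small). The labels give same-numbered samples a number in common and do not say what else they shared. The correlation of same-numbered deviations was 0.35 over all genes and 0.14 over members. With the block, 735 of all genes and 3 members were under 0.05 before adjustment in edgeR's quasi-likelihood test, against 242 and 2 without it. The block changed no call. Log2 fold changes that changed sign were, with upper-quartile scaling, Rpl24 -0.0027, Rpl26 -0.021, Rpl5 -0.028, Rps15a -0.026, Rps6 -0.024; with library totals, Rpl24 -0.0079, Rpl26 -0.027, Rpl5 -0.033, Rps15a -0.032, Rps3 -0.0041, Rps6 -0.029; with limma-voom, Rpl8 0.0020, Rps15 0.0060, Rps19 0.0025; and with the replicate block, Rpl8 0.0018, Rps15 0.0061, Rps19 0.0019. All lie near 0. Leaving out 1 library in turn changed the sign for 36 of the 59 named genes, whose lowest and highest log2 fold changes were Fau -0.20 to 0.48, Myc -0.20 to 1.97, Rack1 -0.24 to 0.23, Rpl10a -0.084 to 0.62, Rpl10l -0.093 to 0.60, Rpl11 -0.10 to 0.23, Rpl13a -0.064 to 0.35, Rpl21 -2.09 to 0.28, Rpl22 -0.029 to 0.18, Rpl22l1 -0.29 to 0.11, Rpl24 -0.14 to 0.24, Rpl26 -0.20 to 0.27, Rpl29 -0.41 to 0.35, Rpl3 -0.23 to 0.68, Rpl30 -0.33 to 0.15, Rpl38 -0.33 to 0.63, Rpl39 -0.15 to 0.82, Rpl4 -0.24 to 0.16, Rpl41 -0.28 to 0.29, Rpl5 -0.15 to 0.20, Rpl7l1 -0.0037 to 0.31, Rpl8 -0.26 to 0.28, Rplp1 -0.27 to 0.26, Rplp2 -0.19 to 0.33, Rps15 -0.22 to 0.25, Rps15a -0.064 to 0.10, Rps18 -0.43 to 0.17, Rps19 -0.31 to 0.32, Rps20 -0.40 to 0.089, Rps26 -0.19 to 0.38, Rps27l -0.42 to 0.31, Rps3 -0.16 to 0.28, Rps4l -0.11 to 0.24, Rps4x -0.029 to 0.51, Rps6 -0.14 to 0.20, Rpsa -0.16 to 0.45. Depth limits Rpl29, read at 43 to 73 counts, more than the other members.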

Other observations

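Rps23rg1, a gene that arose when the mRNA of the small-subunit protein Rps23 was copied back into the genome, was chosen after its values were seen. Wild type 1 held 3248 counts of it and wild type 2 held 690, against 1389 and 437 in the libraries labelled knockout. Wild type 1 stood highest, and the groups overlapped (log2 fold change -1.09, SE 0.75, adjusted p = 1.00 in edgeR's quasi-likelihood test). The counting of reads that match both it and Rps23 is not given in the sources used here, so its counts are uncertain.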
